A study of Brassica rapa with 5 samples.

Results

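In leaves of Brassica rapa, 191 genes stood at least 2-fold lower under Cd exposure than in the control while staying within 2-fold of the control under Fe deficiency, Zn deficiency and Zn excess. They were chosen by these values from the 10807 genes with a mean of at least 5 tags per 1000000 clean tags (TPM) over the 5 conditions, of 29183 genes listed in all. A change is log2 of (TPM + 1) in a treatment minus the same in the control, a scale on which genes with few tags show less than their full change. The members' changes in the 4 treatments, the Cd exposure change above all, are therefore a description and were not tested.

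The plants were of accession R-o-18 and grew in hydroponics, first for 14 days in a solution that held 3 µM Fe and 2 µM Zn but lacked Cd. For the next 7 days they received 1 µM Cd, 0.05 µM Fe, 0.005 µM Zn or 50 µM Zn, or stayed in the first solution as the control. RNA came from the first pair of expanded leaves. The labels give 3 replicates per condition, each made from 3 plants. A deposited table is the mean of 3 digital gene expression libraries, an assay that counts short sequence tags from each gene's transcripts. A recovered library held 5575675 to 5997201 clean tags, and 54.0% (Cd exposure) to 58.6% (Fe deficiency) of clean tags lay in genes.

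Cadmium is a toxic metal with no known nutritional role in this crop. It can enter plants through transporters that normally carry divalent iron, zinc or calcium, and plants bind it with thiol-rich peptides, the phytochelatins, and move it into vacuoles. Fe and Zn are cofactors of many leaf enzymes, so comparing Cd with low Fe, low Zn and high Zn asks which leaf transcripts are lower under Cd and not under a shift in one of these nutrients. The tables hold gene identifiers without names, and 0 of the 29183 identifiers matched the RefSeq table of assembly CAAS_Brap_v3.01. Members are named here by identifier, their functions are not described, and the leaf label was not checked against marker genes.

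On the log2 (TPM + 1) scale most differences under Cd exposure were little more than 2-fold. The median change was -1.14, with an interquartile range of -1.31 to -1.07, against a median of -0.073 over all 10807 genes. With 0.1 TPM added in place of 1, the members' median was -1.30. Of all genes, 316 (2.92%) were at least 2-fold lower under Cd exposure, and the 191 are part of these by the rule. A change of -1.5 or lower was found in 17 members, and 1 member, Bra007494, reached 4-fold on this scale. As a plain ratio of TPM, Bra014175 (4.86-fold), Bra004113 (4.70-fold) and Bra022354 (4.30-fold) were also more than 4-fold lower. By plain ratio, however, the Zn excess level of Bra004113, 3.34 TPM, was also more than 2-fold below its control level of 7.59 TPM. Its Zn excess change of -0.99 (standard error 0.48) on the log2 (TPM + 1) scale lay just inside the limit of the rule. Some other members were also more than 2-fold from the control by plain ratio, lower or higher, in a treatment other than Cd exposure. The other 125 genes lower under Cd exposure were left out because they also changed elsewhere. Of these, 74 were at least 2-fold higher under Fe deficiency, 62 higher under Zn deficiency, 20 lower under Fe deficiency and 18 lower under Zn excess. Those 125 genes had a median change of -1.33 under Cd exposure, and 9 of them reached 4-fold on the same scale. In leaf RNA, fewer cells that express a gene and less RNA per cell cannot be told apart.

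**Figure D1:**
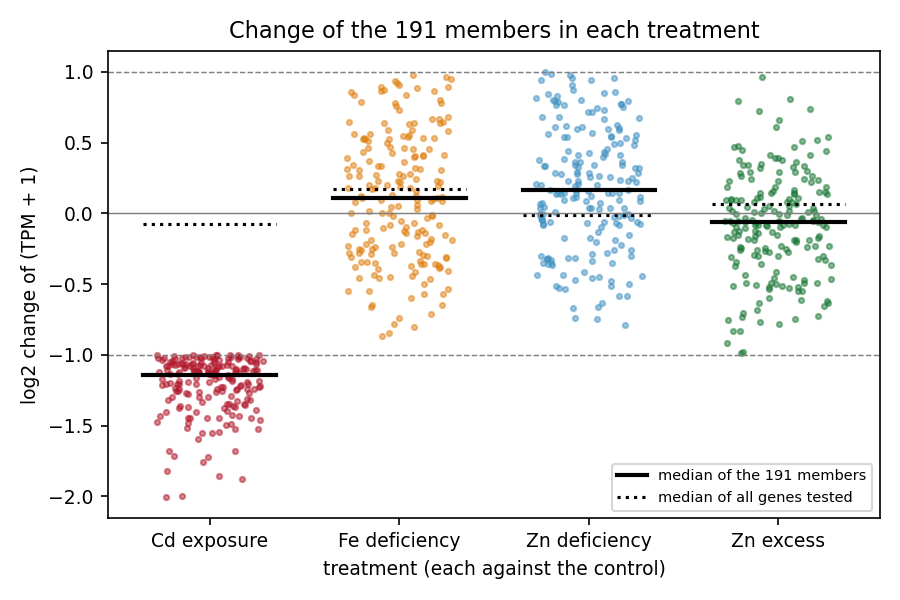
Change of the 191 members in each treatment against the control, on the log2 (TPM + 1) scale. Points are genes, the solid line is the members' median, the dotted line the median of all 10807 genes, and the dashed lines are the limits of the rule at -1 and 1. Under Cd exposure the points crowd below -1 around a median of -1.14, and in the other treatments they spread on both sides of 0.

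The member with the lowest change under Cd exposure was Bra007494. It had 6.88 TPM under Cd exposure, 27.2 TPM under Fe deficiency, 35.9 TPM under Zn deficiency, 31.8 TPM under Zn excess and 30.6 TPM in the control, 4.44-fold lower with Cd than in the control (log2 change -2.0, with a standard error, SE, of 0.29 from the spread between libraries). The 4 conditions without Cd lay close together, and Cd exposure stood apart from the lowest of them by -1.84 on the log2 (TPM + 1) scale. No other member was as far below all other conditions.

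Bra014175 had 3.5 TPM under Cd exposure, 16.0 TPM under both Fe deficiency and Zn deficiency, 13.5 TPM under Zn excess and 17.0 TPM in the control (log2 change under Cd exposure -2.0, SE 0.46). Its control libraries differed widely, as described below, and part of its tags was fractional, as when tags are divided between like genes. Bra010706 had 8.67 TPM under Cd exposure, 28.4 TPM under Fe deficiency, 43.9 TPM under Zn deficiency, 38.5 TPM under Zn excess and 34.5 TPM in the control (log2 change -1.88, SE 0.22). Bra007717 had 4.23 TPM under Cd exposure, 17.0 TPM under Fe deficiency, 25.9 TPM under Zn deficiency, 23.5 TPM under Zn excess and 16.7 TPM in the control (log2 change -1.76, SE 0.26). In both, Cd exposure was the lowest of the 5 conditions and the Zn conditions were the highest. Bra022354 had 3.85 TPM with Cd and 16.5 TPM in the control, and 11.3 to 15.1 TPM in the other 3 treatments.

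Bra035183 behaved less evenly. It had 46.8 TPM under Cd exposure, 300 TPM under Fe deficiency, 291 TPM under Zn deficiency, 117 TPM under Zn excess and 168 TPM in the control (log2 change under Cd exposure -1.82, SE 0.30). Its log2 changes of 0.84 under Fe deficiency and 0.79 under Zn deficiency lay just inside the upper limit of the rule. A gene counted as lower under Cd exposure only can still have a wide range over the other conditions, here 1.35 on the log2 (TPM + 1) scale.

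Members with a flat profile outside Cd exposure were at the other end of that range. Bra008837 had the narrowest, 0.12 on the same scale, with 2.55 TPM under Cd exposure, 6.51 TPM under Fe deficiency, 7.04 TPM under Zn deficiency, 6.37 TPM under Zn excess and 6.82 TPM in the control. Bra024574 had 8.20 TPM under Cd exposure and 18.6 to 20.6 TPM in the other 4 conditions, a range of 0.14.

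Levels here are tags per 1000000 clean tags and are not divided by gene length, so an order of members by level is an order by tags. The tag levels of the members ran from 1.61 to 237 TPM with a median of 6.35 TPM under Cd exposure, and from 5.06 to 595 TPM with a median of 16.5 TPM in the control. Over all genes tested the medians were 12.9 TPM with Cd and 13.8 TPM in the control. The members together held 0.725% of the TPM in genes under Cd exposure, 1.74% in Fe deficiency, 1.95% with low Zn, 1.57% with Zn excess and 1.63% in the control. The member with the highest control level, Bra013091, had 224 TPM under Cd exposure, 804 TPM under Fe deficiency, 956 TPM under Zn deficiency, 603 TPM under Zn excess and 595 TPM in the control (log2 change under Cd exposure -1.41, SE 0.22). Bra010774, next by control level, had 237 TPM under Cd exposure, 328 TPM under Fe deficiency, 563 TPM under Zn deficiency, 503 TPM under Zn excess and 573 TPM in the control. Its Fe deficiency value lay between the Cd exposure value and the rest.

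**Figure D2:**
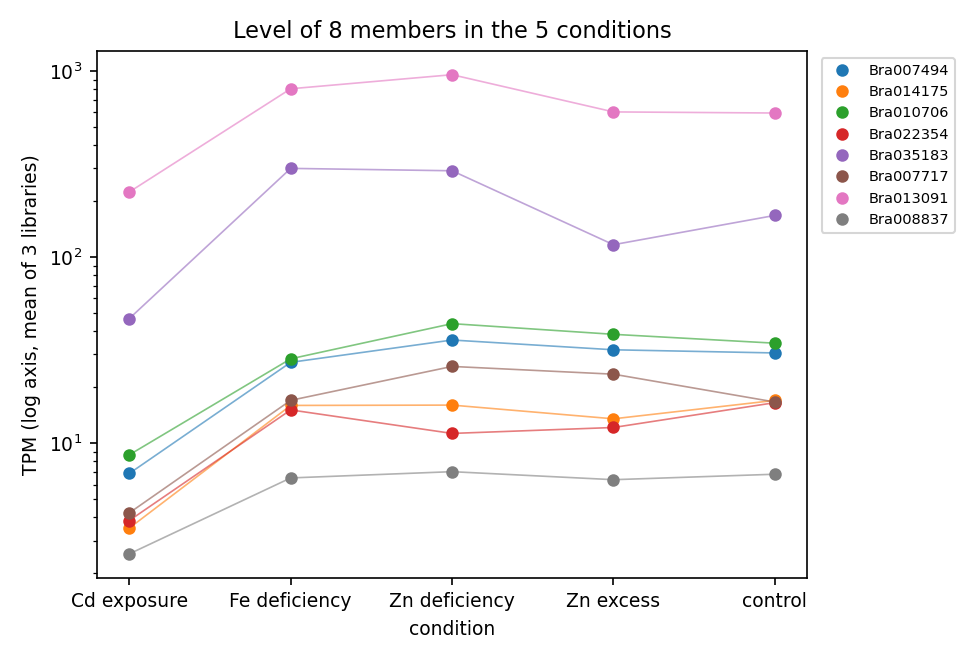
TPM (log axis, mean of 3 libraries) of 8 members in the 5 conditions. Thin lines only join the values of 1 gene. Every gene shown has its lowest value under Cd exposure, from 2.55 TPM (Bra008837) to 224 TPM (Bra013091), while Bra035183 also differs between the other conditions.

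Within the limits of the rule the members were not fixed at the control level in the other treatments. Under Fe deficiency 109 members were above the control (57.1%, against a background of 68.9% of all genes) and 82 below. Their median change was 0.11, against 0.17 over all genes, and it became -0.059 with size factors that remove the general shift of 0.18. Under Zn deficiency 124 members were above the control (64.9%, background 49.0%), with a median of 0.16 against -0.011 over all genes, and 0.16 with size factors. Under Zn excess 79 were above it (41.4%, background 59.0%), with a median of -0.060 against 0.068 over all genes, and -0.13 with size factors. These 3 comparisons and that of Cd exposure share 1 control table. The SE of a single member's log2 change had a median of 0.28 for Fe deficiency, 0.37 for low Zn and 0.30 for Zn excess.

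A level closer than 1.5-fold to the control was held by 148 members under Fe deficiency (77.5%, background 83.3%), 144 under Zn deficiency (75.4%, background 82.8%) and 165 under Zn excess (86.4%, background 91.6%). All 3 limits together were met by 102 of the 191 members, against 7382 of all 10807 genes (68.3%). The background also holds genes outside the 2-fold limits, which the rule kept out of the members. The highest of the 5 values lay under Zn deficiency in 77 members (40.3%, background 21.1%), under Fe deficiency in 62 (32.5%, background 36.2%), under Zn excess in 23 (12.0%, background 17.0%) and in the control in 29 (15.2%, background 7.87%). That Cd exposure held the lowest value in every member follows from the rule. Cd exposure was highest in 17.8% of all genes but could be highest in no member. The members' shares therefore divide among 4 conditions and the background shares among 5. A gene with a high control value was also more likely to pass the rule. Nothing is read from the distance of these shares to the background.

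Setting Cd exposure against each other treatment leaves the control table out, but the rule chose on both sides of it: a low Cd exposure value and values above the lower limit in the other treatments, so Cd exposure had to be lower. The counts and medians below describe by how much, and nothing is read from their distance to the background. Cd exposure was at least 2-fold below Fe deficiency in 134 members (background 9.78% of all genes), below Zn deficiency in 153 (background 10.4%) and below Zn excess in 125 (background 5.12%). The median log2 differences were -1.34, -1.39 and -1.13, against -0.24, -0.073 and -0.15 over all genes. Against the mean of the 3 other treatments the median was -1.28, and 150 members were at least 2-fold lower (background 6.70%). In 89 members Cd exposure was at least 2-fold below each of the other 4 conditions, and 156 of all genes (1.44%) met that criterion. In the member least set apart, the value under Cd exposure was -0.19 from the lowest of the other conditions. For it the difference from another treatment was thus smaller than 0.25, the members' median SE of a change against the control. It was not the only member for which this held.

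Many members lay close to the limits. The change under Cd exposure was between -1.1 and -1 in 68 members and between -1.2 and -1 in 111. In 129 members it was within 1 SE of the threshold, and 153 members were within 1 SE of a limit in at least 1 of the 4 treatments. The SE comes from 1 weighted difference between the libraries of each condition, described below as the library contrast, and not from the recovered libraries. It can be too small where that difference misses part of the spread. Bra037847 had a coefficient of variation of 105% between its Cd exposure libraries and an SE of 0.29. Just inside the threshold, Bra018795 had 4.86 TPM with Cd and 10.7 TPM in the control (log2 change -1.0). Just outside it, Bra035028 had 8.57 TPM with Cd and 18.1 TPM in the control, and Bra011329 had 149 TPM with Cd and 299 TPM in the control (both log2 changes round to -1.0).

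The mean tag number and the mean TPM weight the 3 libraries of a condition differently, because the library totals differ. For genes with whole tags and few of them, only 1 set of tags in the 3 libraries gives both printed values. This recovered the libraries of 34 members under Cd exposure (up to 70 tags over the 3 libraries), of 33 under Fe deficiency and of 32 in the control (both below 10 TPM). In Zn deficiency and Zn excess no member had few enough tags. The labels number no replicates, so a library is named by its clean-tag total, as highest, middle or lowest of its condition.

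In 30 members the libraries of both Cd exposure and the control were recovered. Every library of Cd exposure was below every control library in 27 of them, and in 3 the groups overlapped. The members were chosen on the means of these same libraries, so the separation largely restates the rule. Among all genes recovered in both, 42.5% of 358 had Cd exposure entirely below the control. A gene recovered under Cd exposure had at most 70 tags over its 3 libraries, yet a mean of at least 5 TPM over the 5 conditions. It therefore had to be higher in some other condition. This filter favours a low Cd exposure value in the members and in all recovered genes alike. Bra008837 had 2.57, 2.43 and 2.64 TPM in the Cd exposure libraries with the highest, middle and lowest total, and 6.22, 6.61 and 7.63 TPM in the control libraries in the same order. Its levels were 2.55 ± 0.11 TPM with Cd and 6.82 ± 0.73 TPM in the control (SD, n = 3 each), with no overlap and the widest gap of the 30 members. Bra040624, with the next widest gap, had 2.57, 3.30 and 2.28 TPM under Cd exposure and 6.73, 6.44 and 7.80 TPM in the control. These were 13 to 19 tags per Cd exposure library and 38 to 44 per control library, so counting error is part of the spread.

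Other members rested on uneven libraries. Bra004113 had 2.40, 1.39 and 1.05 TPM under Cd exposure and 6.89, 13.1 and 2.84 TPM in the control, so its mean of 7.59 ± 5.14 TPM in the control (SD, n = 3) came largely from the middle library. The groups did not overlap, but the lowest control library was only 0.44 TPM above the highest Cd exposure library. The 3 members with overlap are named because of it. Bra037847 had 1.03, 5.38 and 0.879 TPM under Cd exposure and 8.07, 2.88 and 11.5 TPM in the control. Bra016545 had 3.09, 1.21 and 5.10 TPM under Cd exposure and 3.53, 8.47 and 11.2 TPM in the control. Bra028784 had 2.74, 2.78 and 3.34 TPM under Cd exposure and 2.86, 7.63 and 10.3 TPM in the control. In Bra037847 and Bra016545 both groups varied, and in Bra028784 the overlap came from 1 low control library.

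**Figure D3:**
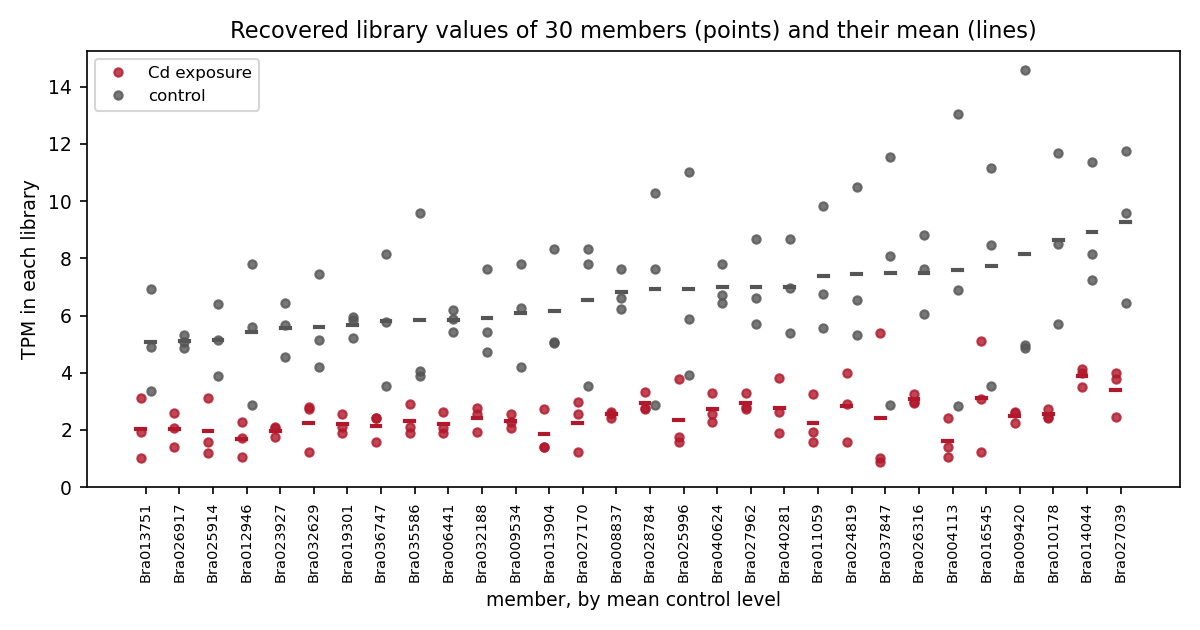
TPM in each recovered library of the 30 members solved under both Cd exposure (red) and control (grey), ordered by mean control level, with short lines at the mean of 3 libraries. Points of the 2 groups are separate in 27 members. The coefficient of variation between libraries was larger in the control than under Cd exposure in 16 of the 30, and in 149 of all 358 genes recovered in both.

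Leaving out 1 library changed how many of the 30 stayed at least 2-fold lower. With all libraries the rule made all 30 at least 2-fold lower, so the count could only fall. Without any single Cd exposure library 22 to 25 of them did. Without the control library with the highest total 29 did, without the middle one 23, and without the one with the lowest total 18. The median log2 change was -1.1 with all libraries and between -1.23 and -1.04 with 1 left out.

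In the control and under Fe deficiency the members tended to be low or high in the same libraries. Under Cd exposure only their lowest level tended to lie in the same library. The rule did not use these patterns as such. It did use the means of these libraries, and a control mean raised by 1 or 2 libraries makes a gene more likely to pass, so the pattern is not independent of the choice of members and is given as a description. In the control, the library with the highest total had the lowest level of the 3 in 24 of 32 members, against 39.6% of 2542 recovered genes. Its median level was 80.9% of the mean of the 3 libraries, against 94.1% over all recovered genes. Under Fe deficiency, the library with the middle total was lowest in 22 of 33 members (66.7%, against 30.8% of 2087 genes), with a median level of 69.7% of the mean. The library with the lowest total stood at 126% there. Under Cd exposure, the middle library was lowest in 18 of 34 members (52.9%, against 22.1% of 367 genes). The highest level was spread evenly over the members there, with 12, 11 and 11 in the libraries with the highest, middle and lowest total. Over the 367 recovered genes it was not, with 95, 204 and 68 in the same order. The median levels of the libraries with the highest, middle and lowest total were 105%, 94.3% and 95.7% of the mean in the members, against 97.3%, 116% and 82.3% over the recovered genes. Whether these shifts between libraries have a part in the change under Cd exposure was not tested.

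**Figure D4:**
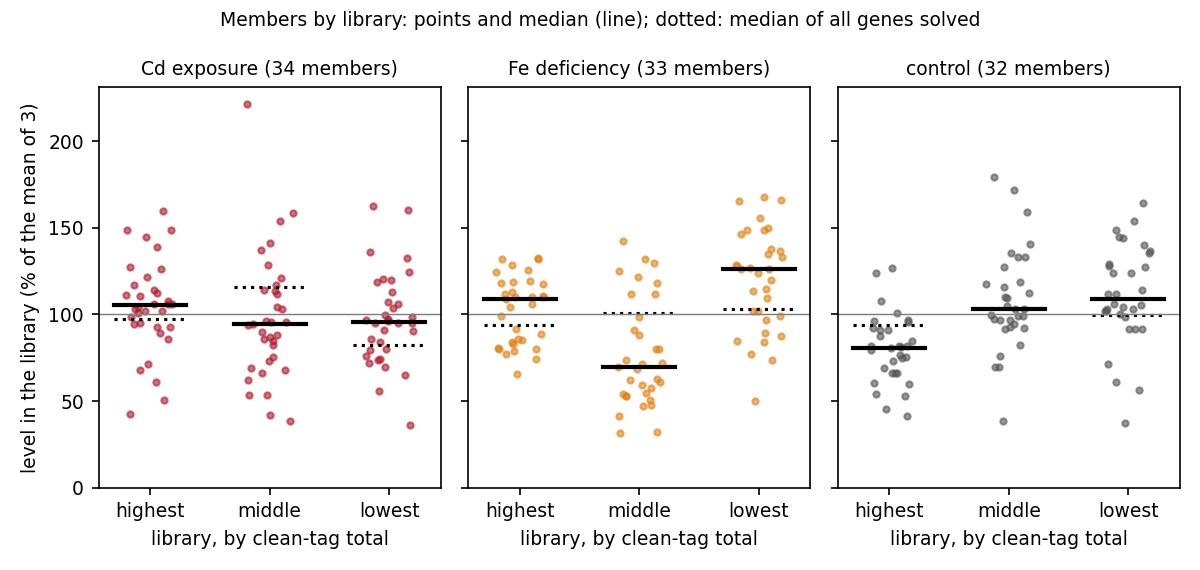
Level of each recovered member in each library as a percentage of the mean of its 3 libraries, for Cd exposure, Fe deficiency and the control, with libraries ordered by clean-tag total. Solid lines are medians of the members and dotted lines medians of all recovered genes. In the control the library with the highest total sits at 80.9%, and under Fe deficiency the middle library sits at 69.7% and the one with the lowest total at 126%.

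For members above the range in which libraries could be recovered, the same 2 columns give 1 weighted difference between the libraries per gene and condition, called the library contrast. It is 0 when the 3 libraries agree and negative when libraries with more clean tags had lower levels, and its root mean square over genes corresponds to the coefficient of variation between libraries. In the control 134 of 191 members had a negative contrast (70.2%, against 48.8% of all genes), and under Fe deficiency 141 did (73.8%, against 53.5%). Under Zn excess 163 had a positive one (85.3%, against 57.7%). Under Cd exposure 109 were positive (57.1%, against 64.6%), and under Zn deficiency 99 (51.8%, against 45.8%). In these last conditions and in Zn excess the contrast hardly weighs the middle library (1.56% to 7.52% of the weight of the library with the highest total).

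The members' contrasts were also larger in size than those of genes in general, in each of the 5 conditions. The root mean square contrast of the members, which includes counting error, was 27.3% under Cd exposure, 44.3% in Fe deficiency, 44.9% with low Zn, 45.9% with Zn excess and 35.4% in the control. Over all genes it was 21.2%, 27.0%, 39.6%, 30.4% and 22.6% in the same conditions. Among the members with the lowest changes, the control contrast was -65.1% for Bra007494, -93.8% for Bra014175, -92.0% for Bra022354 and -73.5% for Bra035183, but -10.1% for Bra010706 and -9.95% for Bra007717. The first 4 therefore had control levels that differed strongly between libraries, and the last 2 did not by this measure. The median control contrast of all members was -11.3%. In the 125 genes lower under Cd exposure that also changed elsewhere it was -44.6%, with a negative contrast in 116 (92.8%), and the difference was not tested. The root mean square contrast of these 125 genes was 27.8% under Cd exposure, 34.0% in Fe deficiency, 51.7% with low Zn, 43.8% with Zn excess and 59.4% in the control.

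Some members cannot be counted as separate genes. Fractional tags, the form that tags divided among matching genes take, occurred in 75 members (39.3%, against 37.5% of all genes). In 3 pairs both genes were members and had values equal within 0.5% in all 5 conditions. Bra022955 and Bra022957 had 189 TPM each with Cd and 409 TPM each in the control. Bra034822 and Bra038671 had 4.10 TPM each with Cd and 14.0 TPM each in the control. Bra013089 and Bra015247 had 2.32 TPM each with Cd and 8.06 TPM each in the control. A further pair of members had equal values in every condition but Zn deficiency (10.2 and 10.4 TPM). Its genes had 3.64 TPM each with Cd and 9.43 TPM each in the control. The tags of each pair do not tell which of its genes was lower under Cd exposure.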

How the data were processed

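The deposited tag numbers are expected counts per gene, and the deposited TPM values are tags per 1000000 clean tags, per the file headers; both are means of 3 libraries. The mapper, build and annotation were not given in the sources used here. Genes absent from 1 table were set to 0 there. Genes with a mean of at least 5 TPM over the 5 conditions were kept. Members and summaries were chosen with earlier results of these data known. With 1 table per condition and members chosen from the changes, no test was run. Genes named are the first ones by lowest change under Cd exposure, by control level, by smallest range over the other conditions, by distance from the lowest other condition and by nearness to the threshold, plus pairs with equal values, genes with overlapping libraries, the 2 with the widest gap and Bra004113 for its uneven libraries, added after their values were seen.

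Clean-tag totals came from genes with 1 tag in 1 library, where 3 TPM values covered 85.3% to 95.2% of such genes, and were refined by least squares. Genes with whole tags (3 times the mean within 0.001 tag, plus rounding) in all conditions were solved for whole tags per library where below 10 TPM. The range of sums ended where over 1% of genes had several solutions or where too few genes below 10 TPM were left. A solution existed for 99.5% to 99.7% of genes so tried under Cd exposure, Fe deficiency and control, against 34.8% to 38.4% after 1 total was moved by 0.5%, so a wrong solution for a single gene is possible. Squared library contrasts were scaled by a running mean over 501 genes of like level, averaged over conditions and moderated with limma 3.58.1 in R 4.3.3 to give the SE, which averages a gene's spread over all conditions. Totals, tags per library and SE were also tested on simulated data. Alternatives covered pseudocount, minimum level, scaling, fold limits, fractional tags, the control as reference and single libraries. Tools were Python 3.11.15, numpy 2.4.6, pandas 2.3.3 and matplotlib 3.10.9.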

Additional observations from a re-analysis of the deposited data

How the results depend on the processing

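The number of genes lower under Cd exposure only was 191. It stayed within 1.5 times of that with a pseudocount of 0.1 (257), no minimum level (260) and size factors (146, of which 136 were among the 191). It moved to 74 with a pseudocount of 5 (62 of them among the 191), 77 with a minimum mean of 20 TPM, 1 at 4-fold, 102 with limits of 1.5-fold in the other treatments and 116 among genes with no fractional tags; the minimum, the stricter limits and the last set test fewer genes or select from the members. With the mean of the control and the 3 other treatments as reference it was 287, of which 156 were among the 191; the cause was not tested. With a pseudocount of 5 the members' median change under Cd exposure was -0.87 and the median difference from the mean of the 3 other treatments -0.92, since a larger pseudocount shrinks the changes of low genes. The other 28 of 30 medians moved by less than the median SE of a single member, a wide measure for a median over many genes. Among these, size factors turned the Fe deficiency median to -0.059 against 0.11 and brought the Zn excess median to -0.13 against -0.060. Of 72 values for the 24 genes named in the text, 52 moved by less than 1 SE. Of the 22 members among them, 10 were no longer 2-fold lower with a pseudocount of 5, among them Bra008837 (-0.65) and Bra004113 (-0.93), and 2 with size factors, Bra018795 (-0.94) and Bra028784 (-0.95). Leaving out 1 recovered library, an alternative chosen after seeing the data, left 18 to 29 of 30 members at least 2-fold lower. All 30 were so by the rule with all libraries, so this count could only fall. No paired analysis was possible because the 3 libraries of a condition are given only as their mean and the labels number no replicates. No count test was run, because the tag numbers are means and whole libraries could be recovered only for genes with few tags; depth therefore limits the library values to such genes.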
